A study of Homo sapiens with 4 samples.

Results

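The genes described here encode the integrin subunits and the laminin chains, in H1792, an established line of human lung cancer cells, after 96 h with the degrader ACBI1 or with its solvent DMSO. Members were chosen by symbol, from the genes of the count tables whose name is ITGA or ITGB followed by a subunit number or letter, or LAMA, LAMB or LAMC followed by a chain number. The genes described number 37 of 61228, namely 26 integrin subunits and 11 laminin chains. The 30 with 10 or more counts in at least 2 libraries, 20 integrin subunits and 10 laminin chains, are reported in full.

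RNA-seq had been made from 2 libraries of each group, with the genotype given as WT for all 4. The labels describe both groups as the same line in the same medium with serum, so the treatment is the one stated difference. ACBI1 is a PROTAC that brings the SWI/SNF ATPases SMARCA2 and SMARCA4, and the subunit PBRM1, to the VHL ubiquitin ligase, which marks them for degradation. The labels write its dose as 1 mM, and counts offer no check of that unit. The labels do not say that the libraries of a group came from separate cultures, so p-values measure the spread between these libraries, which may be technical.

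Integrins are membrane receptors built from 1 alpha and 1 beta subunit, and the pair decides what the receptor binds. Laminins are secreted trimers of 1 alpha, 1 beta and 1 gamma chain, and are the main adhesive proteins of basement membranes, the thin sheets that epithelial cells rest on. In lung and other epithelia, cells attach to laminin chiefly through ITGA3 or ITGA6 joined to ITGB1, and through ITGA6 joined to ITGB4. Other integrins bind collagen, or the arginine-glycine-aspartate motif (RGD) in fibronectin and related proteins. Those typical of blood cells bind counter-receptors on other cells.

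Counts assigned to genes summed to 64281850 to 86010100 per library. Pearson's r of log2(CPM + 1) across genes, which are not independent replicates, was 0.989 between the DMSO libraries, 0.992 between the ACBI1 libraries and 0.947 to 0.964 between groups. CPM are counts per 1000000 counts, scaled by TMM, a factor that corrects for differences in make-up between libraries. Of 6 general epithelial markers, KRT7, KRT8 and KRT18 were well detected in both groups, and CDH1 was at 0.222 CPM or less. EPCAM was at 5.38 and 2.78 CPM with DMSO and at 15.6 and 4.835 CPM with ACBI1. KRT19 was at 3.44 and 5.00 CPM with DMSO and at 0.961 and 0.503 CPM with ACBI1. Lung epithelial markers were nearly absent: the 8 listed summed to 0.319 to 0.458 CPM per library, with NKX2-1, SFTPA1 and SCGB1A1 at 0 counts in all 4. The 8 leukocyte markers summed to 0.614 to 1.60 CPM, with CD3E at 0 counts. The 6 fibroblast markers, which include 2 collagen genes, summed to 1001 and 1979 CPM with DMSO and to 88.1 and 272 CPM with ACBI1. The 6 endothelial markers summed to 12.8 and 49.0 CPM with DMSO and to 0.123 and 0.137 CPM with ACBI1; PECAM1 made up 12.2 and 48.1 CPM of the DMSO sums.

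With ACBI1, transcripts of 8 integrin subunits and 4 laminin chains fell and 1 laminin chain, LAMC3, rose. The largest changes were in the collagen-binding subunits ITGA11 (57.0-fold lower) and ITGA1 (19.1-fold lower), the chain LAMB3 (15.7-fold lower) and the RGD-binding subunit ITGB8 (10.8-fold lower). By contrast, the common beta subunit ITGB1, the laminin receptor subunit ITGA6 and the laminin chains LAMA2, LAMA3 and LAMA5 were not called. Called means an adjusted p under 0.05 in edgeR's quasi-likelihood test, with Benjamini-Hochberg adjustment over all 19159 genes tested. The 13 calls among 30 members (43.3%) stand beside 17.4% of all genes tested, the 12 falls beside 10.6% of all genes tested called lower, and the 1 rise beside 6.75% called higher.

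The median log2 change was -0.68 over the 20 integrin subunits and -0.64 over the 10 laminin chains, against 0.01 over all genes tested. Of the 20 integrin subunits 8 were called, and of the 10 laminin chains 5; without ACBI1 replicate 1 the chains called numbered 3 in place of 5. Both ACBI1 libraries lay on one side of both DMSO libraries in 18 of 30 members, a share close to the 63.2% of all genes tested that did so. Of these, 16 were lower and 2 higher with ACBI1, against 32.2% and 31.1% of all genes tested.

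**Figure D1:**
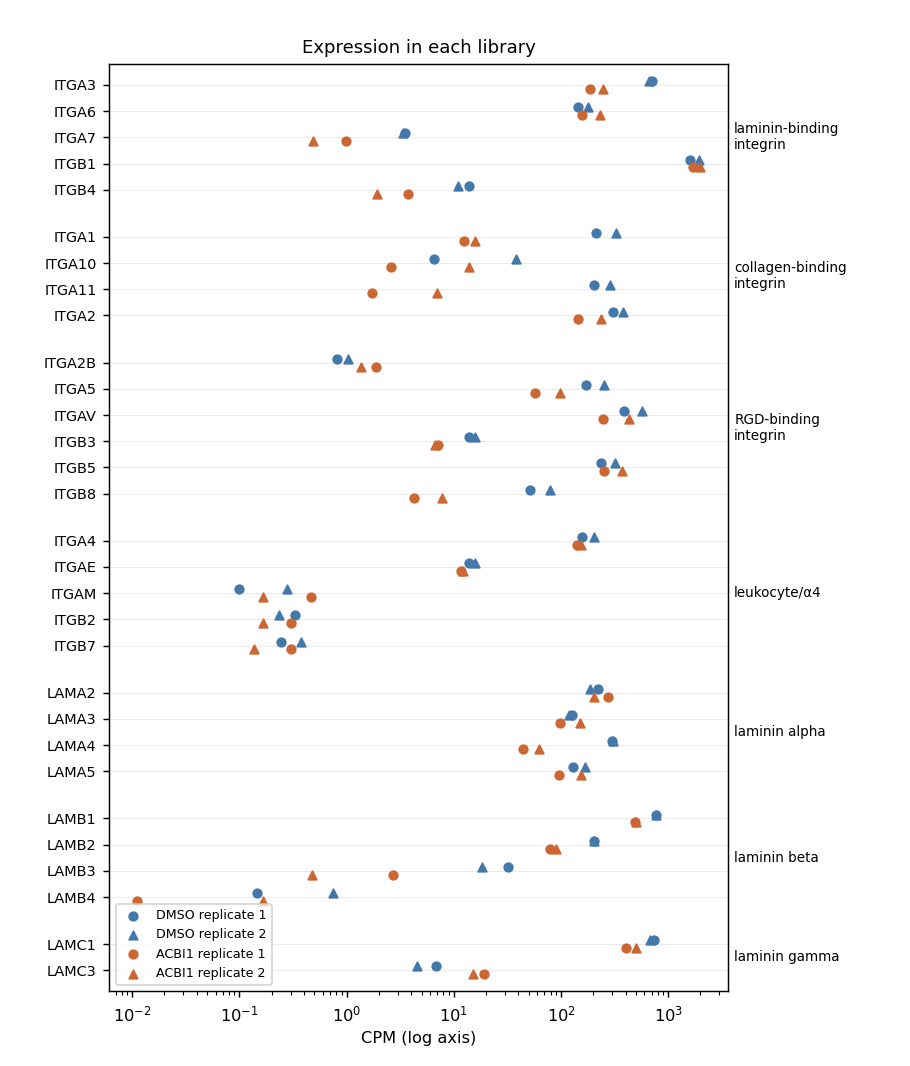
Expression of the 30 reported genes in each library, in CPM on a log axis, grouped by what the receptor binds or by laminin chain; circles are replicate 1, triangles replicate 2, blue is DMSO and orange is ACBI1. The groups lie far apart for ITGA1, ITGA11, ITGB8 and LAMA4, and overlap for ITGB1, ITGA6 and LAMA3.

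Among the subunits of laminin receptors, the abundant alpha subunit ITGA3 fell while ITGA6 was not called. ITGA3 was at 713 and 661 CPM in the DMSO libraries and at 187 and 247 CPM in the ACBI1 libraries. The groups were well apart, and the log2 change was -1.66 (SE 0.21, 95% interval -2.16 to -1.16, edgeR adjusted p 0.00687). ITGA6 was at 145 and 179 CPM with DMSO and at 155 and 231 CPM with ACBI1, so its groups overlapped. Its log2 change of 0.25 had a 95% interval from -0.33 to 0.84 (edgeR adjusted p 0.506), and became -0.070 when ACBI1 replicate 2 was left out.

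ITGB1, which pairs with most alpha subunits described here and not only with those for laminin, was the most abundant member per length. It was at 1585 and 1940 CPM with DMSO and at 1695 and 1975 CPM with ACBI1. The groups overlapped, with a log2 change of 0.06 and a 95% interval from -0.44 to 0.55 (edgeR adjusted p 0.870). The value was -0.076 without DMSO replicate 1 and -0.066 without ACBI1 replicate 2. ITGB4, the partner of ITGA6 in hemidesmosomes, which tie the membrane to keratin filaments, was at 13.9 and 11.0 CPM with DMSO and fell to 3.71 and 1.91 CPM with ACBI1. Every ACBI1 value was below every DMSO value, and the log2 change was -2.15 (SE 0.38, edgeR adjusted p 0.0171).

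ITGA7, a laminin receptor subunit best known from muscle, was rare in these cells. It fell from 3.51 and 3.38 CPM with DMSO to 0.983 and 0.488 CPM with ACBI1, a log2 change of -2.21 (edgeR adjusted p 0.0224). Leaving out ACBI1 replicate 1 gave -2.81, and leaving out ACBI1 replicate 2 gave -1.82 with the call lost (adjusted p 0.0569).

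Per length, the make-up of the laminin-binding alpha subunits was not the same in both groups. Levels of different genes were set side by side as CPM per kilobase of exonic sequence in GENCODE release 29. ITGA3 made up 76.2% and 70.7% of the sum of ITGA3, ITGA6 and ITGA7 in the DMSO libraries, and 44.3% and 41.6% in the ACBI1 libraries. ITGA6 made up 23.2% and 28.8% with DMSO and 55.3% and 58.3% with ACBI1, so that it was ahead of ITGA3 in both ACBI1 libraries and behind it in both DMSO libraries. With the longest transcript in place of the exonic length, a choice made after seeing the data, ITGA6 was at 18.6% (mean of DMSO) and 46.1% (mean of ACBI1), still behind ITGA3 at 53.6% with ACBI1. The order of the pair with ACBI1 therefore depends on the length used. Shares of this kind were compared over 2 and 2 libraries, for which an exact permutation test cannot give a p under 0.333, and none was tested.

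The collagen-binding alpha subunits, each of which pairs with ITGB1, held the largest changes. ITGA11, a receptor for fibrillar collagen known from mesenchymal cells, was at 204 and 290 CPM with DMSO and at 1.71 and 7.03 CPM with ACBI1. It was thus among the well expressed alpha subunits in both DMSO libraries and scarce in both ACBI1 libraries. The log2 change was -5.83 (SE 0.71, edgeR adjusted p 0.00653). Leaving out ACBI1 replicate 1 gave -5.12, and leaving out ACBI1 replicate 2 gave -7.18. ITGA1, which binds collagens of both fibrils and basement membranes, fell from 211 and 326 CPM to 12.4 and 15.8 CPM. Its log2 change was -4.25 (SE 0.29, edgeR adjusted p 0.00193), and PELO and other genes share 6.39% of its exonic length.

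The listed fibroblast markers moved in the same direction as ITGA11 and ITGA1, and as LAMA4 described further on. All 6 had both ACBI1 libraries below both DMSO libraries, beside 32.2% of all genes tested. Of the 6, 4 were called lower, as were 2 of 3 endothelial markers tested, beside 10.6% of all genes tested. All 6 fibroblast markers were detected in both DMSO libraries of this 1 line. Of the endothelial list, PECAM1 was at 12.2 and 48.1 CPM with DMSO. KDR, VWF, CDH5, TEK and CLDN5 were at 0.528 CPM or less there. No marker of the fibroblast list was at 0 counts in any library. The endothelial markers CDH5 and VWF were at 0 counts in both ACBI1 libraries. With DMSO, CDH5 had only 2 and 4 counts and VWF 24 and 23. The part of both lists in the result was not tested. Fewer cells of one kind and less RNA per cell cannot be told apart in bulk libraries.

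The promoters of the pair with the largest falls are shown because these genes moved together; they are the 250 bases before the RefSeq start site (GRCh38.p14), printed 5' to 3' on the gene's strand. The window of ITGA11 is chr15:68432164-68432413 on the minus strand and that of ITGA1 is chr5:52787666-52787915 on the plus strand.
ITGA11: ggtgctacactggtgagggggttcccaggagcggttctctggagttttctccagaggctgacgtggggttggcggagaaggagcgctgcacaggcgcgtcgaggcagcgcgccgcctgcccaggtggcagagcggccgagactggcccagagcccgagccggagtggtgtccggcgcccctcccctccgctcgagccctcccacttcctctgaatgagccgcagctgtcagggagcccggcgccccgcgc
ITGA1: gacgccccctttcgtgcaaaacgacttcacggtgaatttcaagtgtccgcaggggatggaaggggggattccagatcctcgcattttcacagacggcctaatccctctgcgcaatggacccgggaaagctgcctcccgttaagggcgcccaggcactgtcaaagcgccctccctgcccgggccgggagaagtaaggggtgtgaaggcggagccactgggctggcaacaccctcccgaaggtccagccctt
These windows hold 71.2% and 62.0% G and C, against a median of 64.8% over tested genes. Neither holds the AP-1 motif TGANTCA (a palindrome, so 1 search covers both strands), the TEAD motif GGAATG or CATTCC, or the GC box GGGCGG or CCGCCC. The AP-1 letters occur in 4.30%, the TEAD letters in 9.57% and the GC box letters in 65.2% of the 12359 promoters of tested genes of the same length.

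ITGA2, the other abundant collagen receptor subunit, was at 309 and 383 CPM with DMSO and at 145 and 237 CPM with ACBI1. Both ACBI1 libraries were lower, but the log2 change of -0.86 (95% interval -1.52 to -0.20) missed the threshold (edgeR adjusted p 0.0798). It passed with DESeq2 (adjusted p 0.0251). ITGA10, a collagen receptor subunit of cartilage, differed more between replicate numbers than between treatments. Its values were 6.50 and 37.7 CPM with DMSO and 2.59 and 14.0 CPM with ACBI1. The groups overlapped, and the log2 change of -1.42 (edgeR adjusted p 0.360) was 0.34 without DMSO replicate 2 and -3.10 without ACBI1 replicate 2. Without DMSO replicate 1 it was -2.19 and called (adjusted p 0.0138). Within each replicate number the ACBI1 library was the lower, and with that number as a block the change was -1.38 and called (edgeR adjusted p 4.26e-05).

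In the collagen-binding pool, per length, ITGA2 was the largest subunit in all libraries, and its share was larger with ACBI1. It made up 55.5% and 49.1% of the 4 subunits with DMSO and 93.7% and 89.0% with ACBI1. Its own level was 43.7 ± 6.63 CPM per kilobase with DMSO and 24.1 ± 8.16 with ACBI1 (SD, n = 2). ITGA11 made up 26.8% and 27.0% with DMSO and 0.803% and 1.93% with ACBI1, and ITGA1 went from 16.2% and 17.8% to 3.40% and 2.53%. With the longest transcript as the length, ITGA1 was at 24.5% and 26.5% with DMSO and at 5.67% and 4.22% with ACBI1. ITGA11 was then at 25.0% and 24.8% with DMSO, so that the order of these subunits with DMSO depends on the length used, while both shares were lower in both ACBI1 libraries with either length. The pool's total was 84.4 ± 20.0 CPM per kilobase with DMSO and 26.6 ± 9.91 with ACBI1 (SD, n = 2).

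**Figure D2:**
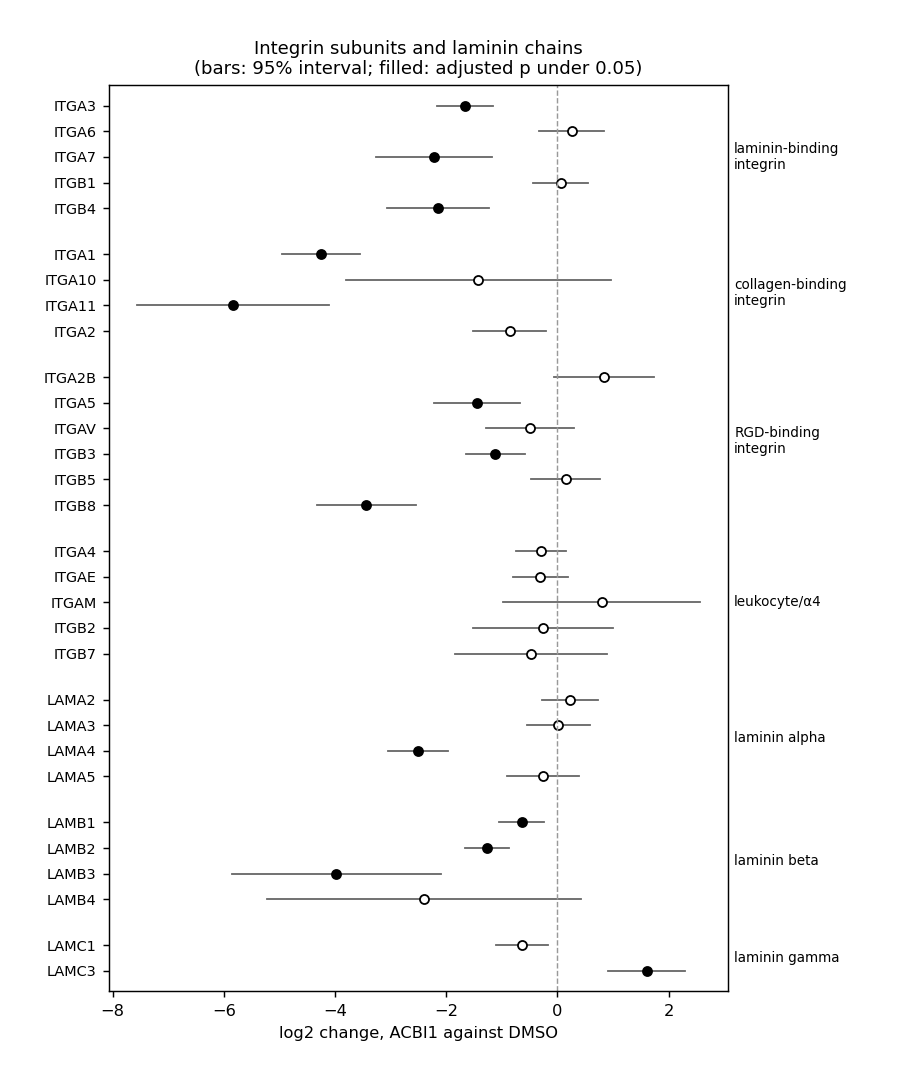
Log2 change of each reported gene with ACBI1 against DMSO, with its 95% interval from the edgeR fit; filled points have an adjusted p under 0.05, and the 4 libraries enter every point. LAMC3 is the 1 filled point above 0, and ITGA11, at -5.83, lies farthest below it.

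Of the RGD-binding subunits, ITGB8, ITGA5 and ITGB3 fell, while ITGAV and ITGB5 were not called. ITGB8, which pairs with ITGAV and is known for the release of active TGF-beta from its latent form, was at 51.7 and 78.5 CPM with DMSO and at 4.24 and 7.79 CPM with ACBI1. The groups were an order of magnitude apart, with a log2 change of -3.44 (SE 0.37, edgeR adjusted p 0.00462). ITGA5, the alpha subunit of the classical fibronectin receptor with ITGB1, fell from 170 and 251 CPM to 56.8 and 97.7 CPM. Its log2 change was -1.45 (edgeR adjusted p 0.0304), and without ACBI1 replicate 1 it was -1.10 and not called (adjusted p 0.0922).

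ITGB3, a further partner of ITGAV, was at 14.0 and 15.8 CPM with DMSO and at 7.13 and 6.62 CPM with ACBI1. The log2 change was -1.12 (edgeR adjusted p 0.0223). The call was lost without DMSO replicate 2 (-1.03, adjusted p 0.0502), ACBI1 replicate 1 (-1.16, adjusted p 0.0919) and ACBI1 replicate 2 (-1.07, adjusted p 0.0966). Another gene on the same strand shares 51.6% of the exonic length of ITGB3, so its counts are uncertain.

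ITGAV, the alpha subunit that several RGD-binding receptors share, was at 389 and 575 CPM with DMSO and at 248 and 435 CPM with ACBI1. Its groups overlapped, with a log2 change of -0.50 and a 95% interval from -1.28 to 0.29 (edgeR adjusted p 0.332). Within each replicate number the ACBI1 library was the lower. With that number as a block the change was -0.52 and called (edgeR adjusted p 0.0135). ITGB5, which forms the vitronectin receptor with ITGAV, was at 239 and 318 CPM with DMSO and at 250 and 368 CPM with ACBI1. Its log2 change was 0.15 (95% interval -0.47 to 0.76, edgeR adjusted p 0.726), and -0.17 without ACBI1 replicate 2 or -0.039 without DMSO replicate 1. ITGA2B, a platelet subunit, was at 0.811 and 1.03 CPM with DMSO and at 1.90 and 1.37 CPM with ACBI1, and was not called (edgeR adjusted p 0.174).

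None of the 5 reported subunits typical of blood cells was called, and none of them had an unadjusted p under 0.05. ITGA4, which binds VCAM1 and fibronectin, was the 1 subunit of this group at a substantial level. It was at 158 and 203 CPM with DMSO and at 142 and 153 CPM with ACBI1, a log2 change of -0.29 (95% interval -0.75 to 0.16, edgeR adjusted p 0.323). ITGAE, which pairs with ITGB7 to bind E-cadherin, was at 13.7 and 15.9 CPM with DMSO and at 11.7 and 12.3 CPM with ACBI1. ITGAM, ITGB2 and ITGB7 were at 0.469 CPM or less in every library, near the level of leukocyte markers, and their groups overlapped. For ITGB7, another gene overlaps 42.1% of the exonic length.

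The 7 members below the minimum were ITGA8, ITGA9, ITGAD, ITGAL, ITGAX, ITGB6 and LAMA1. ITGA8 and ITGAD had 0 counts in all libraries, where 3 counts would be 0.0335 to 0.0458 CPM. ITGB6, an epithelial partner of ITGAV, had 9 and 14 counts with DMSO and 2 and 0 with ACBI1. DMSO exceeded ACBI1 11.6-fold after scaling (95% exact interval 2.87 to 102, for counting error only). ITGAX had 4 and 7 counts against 0 and 0, which is at least 3.71-fold lower with ACBI1 (floor of 3 counts over the group). LAMA1, the alpha chain of the first basement membrane of the embryo, had 2 and 2 counts with DMSO and 11 and 7 with ACBI1.

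The laminin alpha chains, which carry the sites that integrins bind, were not called apart from LAMA4. LAMA4, a chain of vascular and mesenchymal basement membranes, was at 299 and 308 CPM with DMSO and at 44.4 and 62.7 CPM with ACBI1. The DMSO libraries differed little, and the log2 change was -2.50 (SE 0.22, edgeR adjusted p 0.00291). LAMA2, the chain best known from muscle and nerve, was at 221 and 186 CPM with DMSO and at 273 and 203 CPM with ACBI1. Its groups overlapped (log2 change 0.23, 95% interval -0.28 to 0.74, edgeR adjusted p 0.491).

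LAMA3, the alpha chain of epithelial anchoring laminin, was at 127 and 119 CPM with DMSO and at 98.3 and 151 CPM with ACBI1. The ACBI1 libraries lay on either side of both DMSO libraries, and the log2 change was 0.02 (95% interval -0.55 to 0.58, edgeR adjusted p 0.967). LAMA5, the broadly expressed epithelial chain, was at 129 and 168 CPM with DMSO and at 95.2 and 153 CPM with ACBI1. Its log2 change of -0.26 (95% interval -0.91 to 0.39, edgeR adjusted p 0.542) became 0.049 without ACBI1 replicate 1. Per length, LAMA4 made up 39.8% and 41.3% of all alpha chains with DMSO and 8.81% and 11.8% with ACBI1, while LAMA2 made up 32.9% and 27.8% and then 60.5% and 42.7%. LAMA4 was thus the first of the alpha chains in both DMSO libraries and LAMA2 in both ACBI1 libraries.

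All 3 well detected beta chains fell. LAMB1, the beta chain of most laminins, was at 767 and 769 CPM with DMSO and at 486 and 499 CPM with ACBI1. The replicates of each group nearly coincided, but the log2 change was small, -0.64 (edgeR adjusted p 0.0472). The call was lost with library sizes alone as the scaling (-0.55, adjusted p 0.0600) and when any 1 library was left out (adjusted p 0.0718 to 0.243). LAMB2, which replaces LAMB1 in laminins of nerve, muscle and kidney, fell from 203 and 202 CPM to 78.8 and 89.8 CPM. Its log2 change was -1.26 (SE 0.16, edgeR adjusted p 0.00744).

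LAMB3, found with LAMA3 in the anchoring laminin of epithelia, was at 32.1 and 18.5 CPM with DMSO and at 2.69 and 0.473 CPM with ACBI1. The groups were far apart, though replicates differed within each, and the log2 change was -3.98 (SE 0.77, edgeR adjusted p 0.0224). Leaving out ACBI1 replicate 1 moved it to -5.73, and leaving out ACBI1 replicate 2 to -3.24. LAMB4 was close to the detection limit, with 12 and 54 counts against 1 and 11, and was not called (edgeR adjusted p 0.204). It was called without DMSO replicate 1 (adjusted p 0.0254).

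The gamma chain LAMC3 rose, and LAMC1 missed the threshold. LAMC1, the gamma chain of nearly all laminins, was at 735 and 672 CPM with DMSO and at 404 and 501 CPM with ACBI1. Both ACBI1 libraries were lower, with a log2 change of -0.64 (95% interval -1.10 to -0.17, edgeR adjusted p 0.0691), and DESeq2 called it (adjusted p 0.0246). LAMC3, a rare gamma chain described in brain, skin and retina, went from 6.77 and 4.52 CPM to 19.1 and 15.2 CPM. It was 3.04-fold higher with ACBI1 (log2 change 1.60, SE 0.28, edgeR adjusted p 0.0172), and without ACBI1 replicate 1 the change was 1.44 and not called (adjusted p 0.0655). Per length, LAMC3 was at 0.743 ± 0.209 CPM per kilobase with DMSO and 2.26 ± 0.362 with ACBI1 (SD, n = 2), far under LAMC1 at 83.7 ± 5.28 and 53.8 ± 8.12 (SD, n = 2).

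LAMB3 and LAMA3 meet in the epithelial anchoring laminin, and LAMB3 fell while LAMA3 was not called. The counts of LAMA3 pool all forms of the gene, and its forms were not told apart. The 95% interval of the log2 change of LAMB3, -5.85 to -2.10, lay below that of LAMA3, and the difference between genes was not tested. On the receptor side of the same adhesion, as known from epithelia, ITGB4 fell and ITGA6 was not called. Per length, ITGB4 was at 1.84 ± 0.302 CPM per kilobase with DMSO, against 24.8 ± 3.73 for ITGA6 (SD, n = 2). Whether these cells form this adhesion was not tested, and its genes COL17A1, KRT5 and KRT14 were below the filter. Per length, LAMA3 was at 8.39 ± 0.367 CPM per kilobase with DMSO and 8.50 ± 2.55 with ACBI1 (SD, n = 2). LAMB3 was at 5.40 ± 2.05 with DMSO and 0.338 ± 0.335 with ACBI1 (SD, n = 2). With DMSO both chains were within an order of magnitude of each other, and with ACBI1 LAMA3 exceeded LAMB3 by more than that. The 6 epithelial markers summed to 982 and 1035 CPM with DMSO and to 323 and 202 CPM with ACBI1. Of 5 tested, 4 were called lower, beside 10.6% of all genes tested. EPCAM, the other one tested, was not called, with a log2 change of 1.32 (edgeR adjusted p 0.179). The part of these markers in the result was not tested.

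For LAMA3 and LAMB3, 1 promoter window each is shown because their products meet in the same trimer while LAMB3 fell and LAMA3 was not called. Capitals mark the AP-1 motif TGANTCA. The window of LAMA3 is chr18:23872770-23873019 on the plus strand and that of LAMB3 is chr1:209652426-209652675 on the minus strand, each the 250 bases before the RefSeq start site (GRCh38.p14), printed 5' to 3'.
LAMA3: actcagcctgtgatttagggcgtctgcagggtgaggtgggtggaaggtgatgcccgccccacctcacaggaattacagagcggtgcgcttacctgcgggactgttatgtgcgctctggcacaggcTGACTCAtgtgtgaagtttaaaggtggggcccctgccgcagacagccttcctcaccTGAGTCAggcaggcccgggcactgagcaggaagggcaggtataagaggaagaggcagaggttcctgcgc
LAMB3: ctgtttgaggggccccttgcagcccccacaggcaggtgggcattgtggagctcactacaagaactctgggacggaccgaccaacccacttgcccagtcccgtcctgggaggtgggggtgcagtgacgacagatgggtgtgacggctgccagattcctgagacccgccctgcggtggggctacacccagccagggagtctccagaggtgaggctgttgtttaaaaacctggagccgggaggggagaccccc
LAMA3 held 2 AP-1 matches, starting 125 and 69 bases before the start site. It was the 1 member with a match among the 24 reported members with a promoter window. Over promoters of tested genes, 4.30% held a match. LAMB3 held none, and each of the LAMA3 and LAMB3 windows held 1 GC box. A match describes letters in this window and not binding, and genes with more than 1 start site are represented by 1 window. In the annotation used for exonic lengths, LAMA3 begins at chr18:23689443, so its window lies inside the gene. Counts were per gene and pool all forms of LAMA3. Whether the counted transcripts start at this window was not tested.

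**Figure D3:**
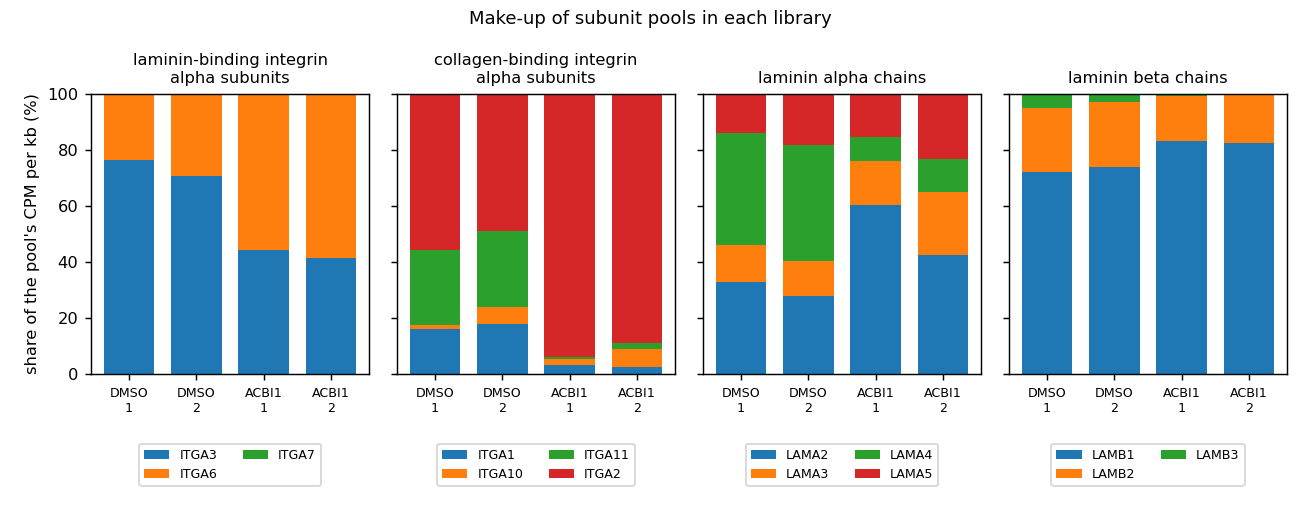
Share of each subunit or chain in its pool, as percent of the pool's summed CPM per kilobase, with 1 bar per library; genes under 0.1% in every library are left out. In both ACBI1 bars the shares of ITGA3, ITGA11, ITGA1 and LAMA4 are smaller, and those of ITGA6, ITGA2 and LAMA2 larger, than in both DMSO bars.

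Ligands and receptors were also set side by side as pools. Summed per length, laminin alpha chains were at 64.6 ± 0.247 CPM per kilobase with DMSO and 44.8 ± 1.78 with ACBI1, and beta chains at 129 ± 1.87 and 73.1 ± 1.96 (SD, n = 2). The laminin-binding alpha subunits summed to 95.4 ± 0.0307 and 51.9 ± 12.5, and all integrin alpha subunits to 292 ± 47.9 and 151 ± 43.3 (SD, n = 2). Each of these sums was lower in both ACBI1 libraries than in both DMSO libraries. LAMA4, the only alpha chain called, was at 26.2 ± 0.589 CPM per kilobase with DMSO and 4.63 ± 1.12 with ACBI1 (SD, n = 2). Of the laminin-binding alpha subunits, ITGA3 was at 70.0 ± 3.74 and 22.2 ± 4.36 (SD, n = 2). ITGA6, not called, was at 24.8 ± 3.73 and 29.6 ± 8.23 (SD, n = 2). The integrin beta subunits, of which ITGB1 was on average 84.8% with DMSO and 86.0% with ACBI1, summed to 346 ± 51.7 and 356 ± 45.7 (SD, n = 2), and their groups overlapped.

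Most other basement membrane genes were lower too. Of the 19 tested of 22 listed, 15 were called, each of them lower (78.9%), with a median log2 change of -2.03. Over all genes tested, 10.6% were called lower. The largest were COL15A1, a collagen at the outer face of basement membranes (log2 change -8.65, edgeR adjusted p 0.000700), and SMOC1, a calcium-binding matrix protein, for which 267 counts with DMSO stood against 2 with ACBI1. Their ratio was 135, and its 95% exact interval for counting error ran from 37.0 to 1120. TINAGL1, a matrix protein that binds integrins, had a log2 change of -3.84 (edgeR adjusted p 0.00212). COL7A1, the anchoring fibril collagen that binds the epithelial anchoring laminin, fell from 1995 and 920 CPM to 187 and 121 CPM (log2 change -3.24, edgeR adjusted p 0.00816), and the change was -2.57 without DMSO replicate 1.

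Integrin ligands other than laminins were in part lower. Of 18 tested of 21 listed, 8 were called, each of them lower (44.4%), with a median of -1.39. The share called lower over all genes tested was 10.6%. VCAM1, the ligand of ITGA4 with ITGB1, had 600 counts with DMSO and 0 with ACBI1, at least 202-fold lower (floor of 3 counts over the group), which was called (edgeR adjusted p 0.00636). ICAM1, the ligand of ITGAL with ITGB2, had a log2 change of -4.13 (edgeR adjusted p 0.00141), and other genes cover 23.6% of its exons. TNC, a matrix protein of remodelled tissue, had a log2 change of -2.50 (edgeR adjusted p 0.0231), or -3.28 without ACBI1 replicate 1. EMILIN1 had a log2 change of -3.38 (edgeR adjusted p 0.0376), which was -1.73 without DMSO replicate 2, -4.13 without DMSO replicate 1 and not called without ACBI1 replicate 1 or 2 (adjusted p 0.108 and 0.0648). The number called in this list was 5 without ACBI1 replicate 1, 13 without DMSO replicate 1 and 15 with the replicate number as a block.

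Laminin receptors that are not integrins went both ways. Of 7 tested of 8 listed, SDC4 and BCAM were called lower and SDC1 and SDC3 higher, and the list's median was -0.46. These calls made up 57.1% of the list's tested genes, beside 17.4% called over all genes tested. SDC4, a heparan sulfate proteoglycan of focal adhesions, went from 412 ± 45.8 to 67.8 ± 1.19 CPM (SD, n = 2; log2 change -2.60, edgeR adjusted p 0.00193). BCAM, which binds LAMA5, had a log2 change of -1.49 (edgeR adjusted p 0.00831). SDC1, the main syndecan of epithelia, had a log2 change of 0.84 (edgeR adjusted p 0.0264) and SDC3 one of 0.76 (edgeR adjusted p 0.0426). Without ACBI1 replicate 2 neither syndecan was called higher (adjusted p 0.133 and 0.106), and SDC3 was also not called without ACBI1 replicate 1 or DMSO replicate 2 (adjusted p 0.169 and 0.144).

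Among 11 membrane proteins that sit beside integrins, 5 were called, each of them lower (45.5%), beside 10.6% called lower over all genes tested. CD82, a tetraspanin, went from 212 ± 57.3 to 9.57 ± 0.425 CPM (SD, n = 2; log2 change -4.47, edgeR adjusted p 0.00141), and PLAUR, the urokinase receptor, had a log2 change of -3.37 (edgeR adjusted p 0.00234). The tetraspanin CD63 had one of -1.49 (edgeR adjusted p 0.00656). CD9 had one of -0.90 (edgeR adjusted p 0.0390) and was not called without DMSO replicate 2, ACBI1 replicate 1 or ACBI1 replicate 2 (adjusted p 0.0946, 0.180 and 0.0695). In this list 3 genes were called without ACBI1 replicate 1, and 8 with the replicate number as a block, of which 7 were lower and 1 higher. Without DMSO replicate 2, 3 were called lower and 1 higher.

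Adaptors and kinases inside the cell, which link integrin tails to actin, were mixed. Of 32 tested of 34 listed, 9 were called lower and 3 higher (37.5%), and the median was -0.31. Over all genes tested, 17.4% were called. NEDD9, a scaffold of the adhesion kinase pathway, had a log2 change of -3.51 (edgeR adjusted p 0.00265). FERMT3, the kindlin of blood cells, was at 427 and 352 CPM with DMSO and at 55.1 and 14.3 CPM with ACBI1 (log2 change -3.49, edgeR adjusted p 0.0171). Leaving out ACBI1 replicate 1 gave -4.76, and leaving out ACBI1 replicate 2 gave -2.83. The tensins TNS1 and TNS2, which bind beta subunit tails, had log2 changes of -3.18 (edgeR adjusted p 0.0189) and -2.05 (edgeR adjusted p 0.0243). The change of TNS1 was -4.17 without ACBI1 replicate 1, and that of TNS2 was -1.32 without DMSO replicate 2 and not called without either ACBI1 library (adjusted p 0.0637 and 0.0578). In this list 6 genes were called without ACBI1 replicate 1 and 22 with the replicate number as a block. Of 5 hemidesmosome genes, only PLEC and DST could be tested and neither was called in edgeR (log2 changes -0.30 and 0.04, none with an unadjusted p under 0.05, none called by DESeq2), while 1 gene of the list was called when every gene with a count was tested or without DMSO replicate 1. COL17A1, below the filter, had 4 and 22 counts with DMSO and 1 and 2 with ACBI1. DMSO exceeded ACBI1 8.76-fold for it after scaling (95% exact interval 2.69 to 45.2, for counting error only). KRT5 and KRT14 had 0 counts in every library.

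**Figure D4:**
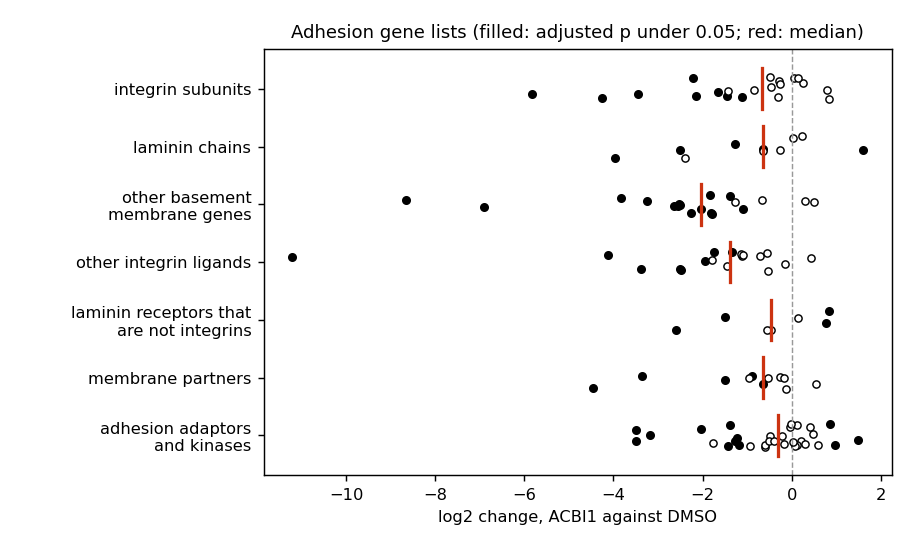
Log2 change with ACBI1 against DMSO of each tested gene, by list; filled points have an adjusted p under 0.05 and red lines are medians. The other basement membrane genes have the lowest median, -2.03, and the point at -11.20 is VCAM1, whose fitted value rests on 0 counts with ACBI1 and is no bound.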

How the data were processed

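The authors deposited raw read counts per gene symbol, in the layout of htseq-count; TopHat2 2.1.1, HTSeq 0.11.0 and hg38 are named, per the submitters' processing notes. The annotation and strand setting are not given in the sources used here, so overlapping and antisense genes can share or lose reads. The 5 lines for reads given to no gene (13.9% to 15.4% of reads) were left out.

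Group and replicate number came from the titles. Counts were filtered with edgeR's filterByExpr (minimum count 10, minimum total 15; 19159 genes kept), scaled by TMM and tested in all 4 libraries with edgeR 4.0.16 in R 4.3.3 (glmQLFit, glmQLFTest, two-sided, treatment alone) with Benjamini-Hochberg adjustment. The 30 reported members were also those that passed the filter. The SE was taken as change/sqrt(F), and 95% intervals use the fit's degrees of freedom. Precision is limited by 2 libraries a group and, for rare genes, by counts; 3 counts was the floor for 0. Exonic lengths and overlaps came from GENCODE release 29 by symbol. Promoters matched 26 of 37 members. Of the 38 genes that the symbol rule takes, 1 is not reported here and enters no count of members.

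Every other member past the minimum is named and, of the called genes in each context list, up to 4 by size of change. Members and lists were chosen with earlier results of these data known. Alternatives were DESeq2 size factors, library size only, every gene with a count, DESeq2 1.42.0, the replicate number as a block, and each library left out. The code was tested on simulated counts.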

Additional observations from a re-analysis of the deposited data

How the results depend on the processing

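Integrin subunits called numbered 8 and laminin chains 5, and over the alternatives these counts ranged from 6 to 11 and from 3 to 7. No integrin subunit was called higher under any alternative run, and LAMC3 was the 1 laminin chain called higher, except without ACBI1 replicate 1. The genes called over all 19159 numbered 3331 (1294 higher, 2037 lower), 5518 when every gene with a count was tested and 7909 with the replicate number as a block. With 1 library left out, where the lone library of its group is assumed to vary like the other group, the counts ranged from 1379 to 4292 for all genes, from 6 to 10 for integrin subunits and from 3 to 5 for laminin chains; the lowest came without ACBI1 replicate 1. Without ACBI1 replicate 2, 1807 genes were called.

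Of the members, 8 that were not called changed sign with 1 library left out. The log2 change then ranged from -0.17 to 0.41 for ITGB5, -3.10 to 0.34 for ITGA10, -0.070 to 0.52 for ITGA6, -0.076 to 0.21 for ITGB1, -0.14 to 1.70 for ITGAM, -0.75 to 0.074 for ITGB2, -0.34 to 0.30 for LAMA3 and -0.65 to 0.049 for LAMA5. With the replicate number as a block, LAMA3 was at -0.015.

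Samples with the same replicate number deviated together (r 0.535 across genes), but 2 pairs and the labels do not show that a number marks a batch. With the block, 11 integrin subunits and 7 laminin chains were called, adding ITGAV, ITGA10, ITGA2, LAMB4 and LAMC1. With every gene tested, ITGA10, ITGA2, LAMB4 and LAMC1 were added, and 1 subunit under the minimum. With the longest transcript as the length, a choice made after seeing the data, 15 mean shares of pools moved by at least their SD and 11 by less. These shares rest on the same CPM and differ only in the length used. Why calls were added with the block or with every gene tested was not tested. Depth limits the 7 members under the minimum and ITGAM, ITGB2, ITGB7 and LAMB4.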
